A study of Mus musculus with 12 samples.

Results

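This account covers 33 mouse genes of sterol and fatty acid synthesis, chosen by name from the pathway, out of the 41325 genes in the deposited tables. The choice was by function but with earlier results of these data known, so counts set beside shares of all genes are descriptive. Of the genes, 23 form a sterol arm and 10 a fatty acid arm. RNA sequencing measured them in an immortalised line of mouse microglia called IMG. The design compares cells given amyloid beta with cells given a scramble control, and the series holds 12 libraries of 4 per group. Every group was wild type on the C57Bl6/J strain, came from cells of the same passage and was exposed for 8 h. The scramble group is the control, and the labels do not say what the scramble agent was. The other groups, labelled oAb and fAb, received amyloid beta preparations. The series text pairs fibrillar with oAb and oligomeric with fAb, opposite to what the initials would give, so the labels oAb and fAb are kept and no form is assigned to either. Doses are not given in the labels. The line is immortalised and of a single passage, and the labels do not say whether the libraries of a group came from separate cultures, so the p-values measure only the spread between these libraries.

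Cholesterol is built from acetyl-CoA through mevalonate, isoprenoid diphosphates, squalene and lanosterol, and long-chain fatty acids are built from the same starting unit by chain growth, elongation and desaturation. Transcription of both pathways is driven by the SREBP proteins, which Scap carries out of the endoplasmic reticulum when membrane sterol is low and which the Insig proteins hold back when it is high. Microglia are the macrophages of the brain and take up lipid-rich debris, and their sterols also feed oxysterol ligands of the LXR receptors.

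Promoter letters are shown for 6 genes because the sterol arm is known for a shared set of promoter motifs, and the 6 include genes with clear, weak and opposite differences in the results. RefSeq promoter windows (build GRCm38.p6, 250 bases before to 50 bases after the start) matched 26 of the 33 genes in 31 windows. Fads1, Fdft1, Fdps, Scd1, Scd2, Sqle and Stard4 had no match. The stretches below are the 250 bases before the start, read 5′ to 3′ on the gene's strand. Capitals mark the NF-Y box (CCAAT, or ATTGG on the other strand) and the sterol regulatory element core TCACNCCAC on either strand.
Hsd17b7 (chr1:169969206-169969455, minus strand): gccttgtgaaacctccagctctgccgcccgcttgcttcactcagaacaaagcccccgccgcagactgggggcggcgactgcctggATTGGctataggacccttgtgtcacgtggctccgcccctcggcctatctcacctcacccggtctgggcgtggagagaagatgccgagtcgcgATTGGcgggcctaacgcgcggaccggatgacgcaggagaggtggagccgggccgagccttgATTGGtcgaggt
Insig1 (chr5:28071162-28071411, plus strand): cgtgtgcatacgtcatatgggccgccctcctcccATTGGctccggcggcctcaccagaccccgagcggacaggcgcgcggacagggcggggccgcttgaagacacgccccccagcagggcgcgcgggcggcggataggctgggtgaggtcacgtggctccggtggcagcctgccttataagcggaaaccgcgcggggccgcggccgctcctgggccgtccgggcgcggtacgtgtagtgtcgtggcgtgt
Lss (chr10:76531355-76531604, plus strand): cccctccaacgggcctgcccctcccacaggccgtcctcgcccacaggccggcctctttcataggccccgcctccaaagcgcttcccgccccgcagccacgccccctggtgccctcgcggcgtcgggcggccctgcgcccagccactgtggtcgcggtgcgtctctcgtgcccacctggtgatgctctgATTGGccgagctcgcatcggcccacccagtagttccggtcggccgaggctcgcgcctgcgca
Hmgcs1 (chr13:119690101-119690350, plus strand): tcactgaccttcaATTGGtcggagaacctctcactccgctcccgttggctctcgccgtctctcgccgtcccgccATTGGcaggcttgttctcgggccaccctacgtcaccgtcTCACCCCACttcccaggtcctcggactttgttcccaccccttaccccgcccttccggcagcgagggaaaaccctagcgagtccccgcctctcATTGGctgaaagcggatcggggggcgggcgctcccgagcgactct
Mvk (chr5:114444019-114444268, plus strand): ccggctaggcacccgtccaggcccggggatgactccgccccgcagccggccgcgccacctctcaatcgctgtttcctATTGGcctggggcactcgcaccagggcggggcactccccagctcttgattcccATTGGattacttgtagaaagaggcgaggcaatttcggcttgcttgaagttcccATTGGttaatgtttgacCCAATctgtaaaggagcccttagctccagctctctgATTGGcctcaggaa
Scap (chr9:110333038-110333287, plus strand, the first of its windows): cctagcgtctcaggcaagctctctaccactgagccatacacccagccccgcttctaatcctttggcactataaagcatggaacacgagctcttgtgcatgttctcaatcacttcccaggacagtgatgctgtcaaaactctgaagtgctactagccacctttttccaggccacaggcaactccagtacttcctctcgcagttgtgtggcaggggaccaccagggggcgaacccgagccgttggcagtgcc
The printed stretch of Hsd17b7 holds 3 NF-Y boxes, that of Mvk 5, that of Hmgcs1 3, those of Insig1 and Lss 1 each and that of Scap 0.

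Among the 300-base windows, NF-Y boxes stood in 73.9% of the 23 sterol arm windows, in 4 of the 8 fatty acid arm windows and in 37.4% of all 32851 windows in the table. The E box CACGTG, which reads the same on both strands, was in 26.1% of the sterol arm windows, in 1 of the 8 fatty acid arm windows and in 7.15% of all windows. The GC box GGGCGG or CCGCCC was in 87.0%, in 4 of 8 and in 35.7%. Base composition differed as well, with a mean GC content of 61.2% in the sterol arm, 61.0% in the fatty acid arm and 53.8% over all windows, and its part in these shares was not tested. TCACNCCAC was in 1 sterol arm window, that of Hmgcs1, where it reads TCACCCCAC and begins 137 bases before the start. It was in 0 fatty acid arm windows and in 1.24% of all windows. None of these motifs contains another. Several windows belong to the same gene, and a match is a description of letters only.

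Library totals ran from 13638721 to 18124419 counts, and 13449 to 13948 genes had a count. All 33 genes passed the filter on low counts in every comparison, and the lowest count of any of them in any library was 138, for Hsd17b7. Scramble library 3 stood apart: ribosomal protein genes took 11.9% of its counts against 7.01% to 7.61% in the other controls and 5.23% to 5.91% in the exposed libraries. Its median correlation with its own group over log2 CPM was 0.955, against 0.980 to 0.984 for the other controls and 0.984 to 0.993 for the exposed libraries. It was the lowest control for 18 of the 33 genes and the highest for 8. The libraries also fell into a pair of sets by the share that Timm23 took of the counts of Timm23 and Gm10273: it was 94.6% to 98.3% in scramble 2, 3 and 4 and oAb 1 and 2, and 17.5% to 38.5% in scramble 1, oAb 3 and 4 and all fAb libraries. The Gm10273 set holds a single control, scramble 1. Values in fAb within that set, or with the set as a term in the fit, therefore compare scramble 1 alone with the fAb libraries, and oAb values within it compare scramble 1 with oAb 3 and 4. That lone control is assumed to vary like the other libraries, so these values describe it and settle no call. Of 12 microglia and macrophage markers, 11 had a mean above 1 CPM (counts scaled to library size) and Tmem119 was near 0. Their summed level was 3562 to 4431 CPM in scramble, 3480 to 3969 in oAb and 3335 to 3761 in fAb. Of the 11, 2 rose (Ptprc and Cx3cr1) in each comparison and 4 fell in oAb and 5 in fAb, P2ry12 by log2 fold changes of -2.63 and -2.92 and Tyrobp by -0.60 and -0.62. No astrocyte marker of 5 reached a mean of 1 CPM. The defining markers Rbfox3, Syt1 and Snap25 of neurons, Mog of oligodendrocytes, Cldn5 of endothelium and Pdgfra of fibroblasts were at 0 in all libraries. Summed levels of the neuron list were 0.923 to 3.47 CPM in scramble, 10.6 to 12.9 in oAb and 10.1 to 12.4 in fAb, mostly Map2. Those of the oligodendrocyte list, from Mbp and Cnp, were 123 to 153, 76.5 to 84.7 and 75.5 to 84.1 CPM. The endothelial list, from Flt1 and Vwf, summed to 8.66 to 12.1, 19.6 to 26.9 and 22.7 to 25.0 CPM, and the fibroblast list, from Dcn, to at most 0.104 CPM in scramble and to 2.98 to 4.42 and 2.81 to 3.42 CPM in oAb and fAb. Mitochondrially encoded transcripts took 4.18% to 4.94% of counts in scramble and 2.73% to 3.37% in the exposed libraries. The part of these lists and shares in the results was not tested. In bulk libraries, fewer cells of a type and less RNA per cell cannot be told apart.

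In control cells the fatty acid arm was the more abundant per unit of gene length. Its median over genes of the mean deposited TPM (length-scaled transcript abundance) in scramble was 160.5, against 46.2 for the sterol arm. Scd2, a stearoyl-CoA desaturase, stood highest at 411 ± 120.4 TPM (mean ± SD, n = 4), followed by the elongase Elovl1 at 216 ± 12.4, the citrate-cleaving enzyme Acly at 199.7 ± 53.01 and the desaturase Fads1 at 191 ± 25.1. Each of the last 3 lay within the SD of its neighbours. Fdps led the sterol arm at 140.0 ± 6.96 TPM. Lss at 17.1 ± 4.03 and Hsd17b7 at 11.04 ± 4.23 TPM were the lowest of all 33, and their ranges of mean ± SD overlapped.

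Cells given oAb had higher RNA of most sterol synthesis enzymes. Of 23 sterol arm genes, 13 rose, 1 fell (Scap) and 9 did not pass the test (edgeR quasi-likelihood, Benjamini-Hochberg adjusted p under 0.05 over 11033 genes), beside 25.2% of all genes tested called higher and 27% called lower. The median log2 fold change of the arm was 0.58, against -0.07 over all genes. In cells given fAb, 14 rose, 2 fell (Scap and Tm7sf2) and 7 did not pass, beside 27.6% of 11074 genes called higher and 28.8% called lower, with medians of 0.62 and -0.04. Both comparisons use the same 4 control libraries, so their values are set side by side and are not separate evidence. All exposed libraries lay above all controls for 12 sterol arm genes in oAb and 13 in fAb, beside 27% and 28.4% of all genes, and below all controls for 1 (Scap) in each, beside 24.1% and 26.8%. Without scramble 3, 3503 of 11148 genes tested rose in oAb and 3819 of 11169 in fAb. In that fit 15 sterol arm genes rose in each comparison. With the library set as a term in the fit, 12 rose in each, and the number that fell in fAb, then against scramble 1 alone, went from 2 to 0. The per-library median of the arm relative to the control mean ran from -0.06 to 0.03 on the log2 scale in scramble, from 0.47 to 0.71 in oAb and from 0.51 to 0.65 in fAb.

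**Figure D1:**
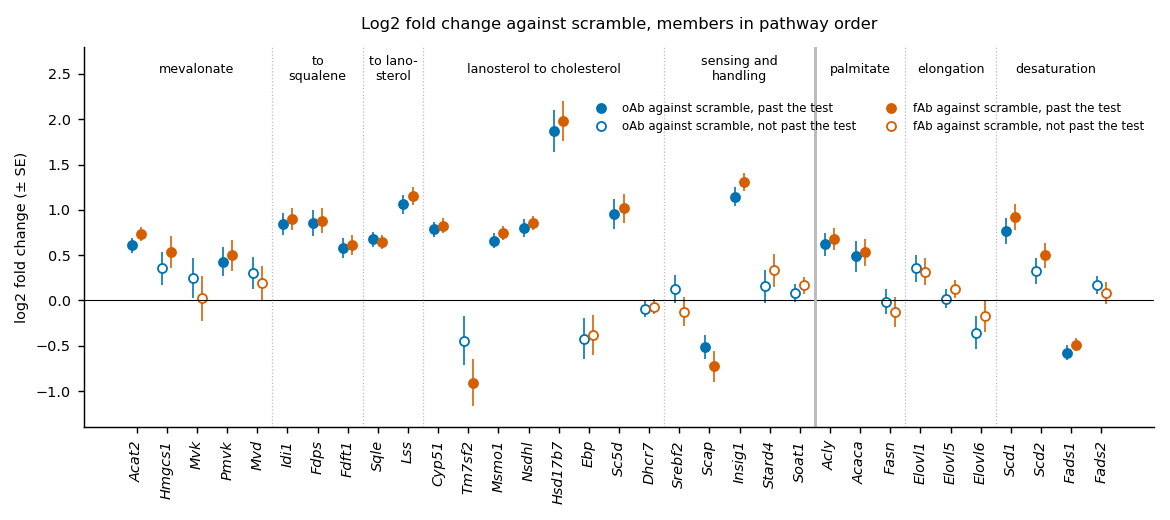
Log2 fold change (± SE, y axis) of each gene in pathway order (x axis) in oAb (blue) and fAb (orange) against scramble. Filled points passed the test. Filled points run above 0 from Idi1 to Cyp51, Hsd17b7 is highest at 1.87 and 1.98, and Scap and Fads1 lie below 0 in both comparisons.

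The first steps, which make mevalonate and phosphorylate it, gave mixed results, with 2 of 5 genes higher in oAb and 3 of 5 in fAb. Acat2, the cytosolic thiolase that joins acetyl-CoA units, was at 51.8, 49.5, 49.9 and 47.3 normalised CPM in the scramble libraries, 71.7, 77.9, 75.1 and 81.7 in the oAb libraries and 78.6, 80.04, 84.6 and 84.4 in the fAb libraries. Every exposed library lay above every control, and the log2 fold changes were 0.61 (SE 0.08, adjusted p = 0.000243) in oAb and 0.74 (SE 0.08, adjusted p = 3.43e-05) in fAb. Hmgcs1, which makes HMG-CoA, was at 152, 132, 76.7 and 128 CPM in scramble, 153, 151, 169 and 158 in oAb and 173, 184, 175 and 167 in fAb. Scramble 1 lay within the oAb range and scramble 3 was far below the other controls. The log2 fold change was 0.35 (SE 0.18, adjusted p = 0.129) in oAb, which did not pass, and 0.53 (SE 0.18, adjusted p = 0.0275) in fAb, which did. In fAb the call was lost in 7 of the 16 other settings tried, among them leaving out scramble 2 or comparing with scramble 1 alone through the library-set term (log2 fold change 0.23, adjusted p = 0.53).

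Pmvk, which adds the second phosphate, was at 21.7, 21.4, 33.6 and 21.2 CPM in scramble, 31.5, 33.2, 35.4 and 33.4 in oAb and 30.6, 33.3, 38.3 and 35.1 in fAb. Scramble 3 reached into the exposed range and the other controls were well below it. Its log2 fold changes were 0.43 (SE 0.16, adjusted p = 0.0492) and 0.50 (SE 0.17, adjusted p = 0.032), called in both comparisons but lost in 10 of 17 other settings in oAb and 8 of 16 in fAb, mostly when 1 library other than scramble 3 was left out. Mevalonate kinase (Mvk) and the decarboxylase Mvd did not pass, and their groups overlapped. Mvk gave 10.9, 14.04, 23.6 and 16.02 CPM in scramble, 20.1, 21.3, 16.4 and 19.9 in oAb and 14.3, 12.3, 19.8 and 18.8 in fAb, with log2 fold changes of 0.25 (SE 0.22, adjusted p = 0.361) and 0.02 (SE 0.25, adjusted p = 0.942). Mvd gave 45.1, 56.1, 82.97 and 61.5 CPM in scramble, 74.6, 82.3, 70.8 and 78.7 in oAb and 65.8, 58.7, 78.4 and 76.6 in fAb, with log2 fold changes of 0.30 (SE 0.17, adjusted p = 0.169) and 0.20 (SE 0.19, adjusted p = 0.398). In both genes scramble 3 was the highest control. Without it Mvk passed in oAb (0.50, adjusted p = 0.0095), as did Mvd in oAb (0.49, adjusted p = 0.00164) and in fAb (0.39, adjusted p = 0.025). Against scramble 1 alone, the Gm10273 set gave 0.74 for Mvk in oAb and 0.75 and 0.67 for Mvd in oAb and fAb.

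All 3 isoprenoid genes on the way to squalene rose in both comparisons. Idi1, the isopentenyl diphosphate isomerase, was at 122, 118, 84.3 and 104 CPM in scramble, 181, 192, 204 and 201 in oAb and 199.9, 212, 198 and 182 in fAb, with log2 fold changes of 0.84 (SE 0.12, adjusted p = 0.000297) and 0.90 (SE 0.12, adjusted p = 0.000175). Fdps, the farnesyl diphosphate synthase, went from 178, 172, 251 and 183 CPM to 322, 333, 377 and 400.0 in oAb and 327, 354, 389 and 363 in fAb, with log2 fold changes of 0.85 (SE 0.14, adjusted p = 0.000829) and 0.88 (SE 0.14, adjusted p = 0.000546). The groups of both genes did not overlap, although scramble 3 was the highest control for Fdps and the lowest for Idi1. Fdft1, which joins farnesyl units into squalene, was at 48.1, 47.2, 60.3 and 49.6 CPM in scramble, 70.95, 73.1, 80.3 and 85.2 in oAb and 71.3, 76.3, 84.2 and 80.2 in fAb, with log2 fold changes of 0.58 (SE 0.11, adjusted p = 0.00202) and 0.62 (SE 0.11, adjusted p = 0.00111). It too had no exposed library within the control range. Within the Timm23 set alone, its oAb call was lost (0.45, adjusted p = 0.0758). Counts of Fdps are uncertain, since it shares 26.2% of its 50-base words with other genes, Gm43738 among them, and overlaps that gene on its own strand. Acat2 shares 39.1% of its words, with Acat3 among the other genes, and Idi1 17.7%, with Gm13502 among them. On the opposite strand, Ctsb covers 18.3% of the exon bases of Fdft1, Gm48342 12.1% of those of Hmgcs1 and Gm48574 9.22% of those of Idi1. The use of strand in counting is not given in the sources used.

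The steps from squalene to lanosterol rose as well. Squalene epoxidase (Sqle) was at 106, 113, 97.9 and 109 CPM in scramble, 169.9, 166, 177 and 174 in oAb and 158, 166, 166 and 170.2 in fAb, with log2 fold changes of 0.67 (SE 0.08, adjusted p = 7.48e-05) and 0.65 (SE 0.07, adjusted p = 7.16e-05). Lanosterol synthase (Lss, mm10 chr10:76531588-76557138), the cyclase that forms the first sterol ring system, went from 64.6, 62.6, 48.7 and 61.8 CPM to 117, 124, 126 and 134 in oAb and 127, 126, 140.4 and 130.5 in fAb. Its log2 fold changes were 1.06 (SE 0.11, adjusted p = 2.81e-05) and 1.15 (SE 0.10, adjusted p = 1.09e-05), and both genes separated all exposed libraries from all controls.

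Of the 8 genes from lanosterol to cholesterol, 5 rose in each comparison and the other 3 did not. Hsd17b7 (mm10 chr1:169949535-169969241), a keto-sterol reductase, showed the widest difference of all 33 genes. It was at 18.5, 20.8, 9.79 and 22.6 CPM in the scramble libraries, 59.02, 58.7, 75.1 and 72.1 in the oAb libraries and 65.8, 73.3, 74.5 and 67.5 in the fAb libraries. Scramble 3 was the lowest control, and the lowest exposed library was more than 2 times the highest control. The log2 fold changes were 1.87 (SE 0.23, adjusted p = 0.000119) and 1.98 (SE 0.22, adjusted p = 5.86e-05), and they stayed between 1.67 and 2.01 in oAb and between 1.79 and 2.11 in fAb over the settings tried. The sterol desaturase Sc5d had the next largest difference of these 8, at 48.5, 42.7, 27.2 and 33.7 CPM in scramble, 75.04, 72.6, 74.5 and 76.2 in oAb and 76.4, 80.8, 73.5 and 74.1 in fAb, with log2 fold changes of 0.95 (SE 0.16, adjusted p = 0.000991) and 1.02 (SE 0.16, adjusted p = 0.000585). Its controls were spread more widely than its exposed libraries, which lay close together.

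Cyp51, the lanosterol demethylase, was at 66.9, 66.4, 59.3 and 72.02 CPM in scramble, 115, 111, 118 and 117 in oAb and 108, 119, 122 and 116 in fAb. The methylsterol oxidase Msmo1 was at 94.03, 89.97, 83.3 and 86.9 in scramble, 136, 132, 152 and 147 in oAb and 142, 149, 158 and 141 in fAb. Nsdhl, the dehydrogenase that removes methyl groups with it, was at 31.9, 30.6, 30.9 and 31.1 in scramble, 48.5, 52.6, 60.2 and 58.1 in oAb and 54.4, 53.5, 60.4 and 54.97 in fAb. In all 3 genes the controls, scramble 3 included, lay close together and below every exposed library. Their log2 fold changes were 0.79 (SE 0.08, adjusted p = 4.49e-05) and 0.82 (SE 0.09, adjusted p = 3.61e-05) for Cyp51, 0.66 (SE 0.08, adjusted p = 0.00014) and 0.75 (SE 0.08, adjusted p = 3.54e-05) for Msmo1, and 0.80 (SE 0.10, adjusted p = 8.81e-05) and 0.85 (SE 0.08, adjusted p = 1.6e-05) for Nsdhl.

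Tm7sf2, a sterol reductase of the same stretch, was called lower in fAb alone, and its level differed between the library sets. It was at 27.7, 47.9, 70.9 and 55.9 CPM in scramble, 44.2, 45.05, 29.4 and 31.7 in oAb and 26.6, 21.6, 31.7 and 27.5 in fAb. Scramble 1 lay within the fAb range, and the other controls lay above every fAb library. Whatever the exposure, it was at 44.2 to 70.9 CPM in the Timm23 set and at 21.6 to 31.7 in the Gm10273 set. The oAb libraries were split in the same way, and no fAb library is in the Timm23 set. The log2 fold change of -0.91 (SE 0.26, adjusted p = 0.0152) in fAb passed the test and that of -0.45 (SE 0.27, adjusted p = 0.195) in oAb did not. Against scramble 1 alone, the only control of the Gm10273 set, the fAb value was -0.02 with the library set as a term (adjusted p = 0.96) and -0.01 within the set, which is the same contrast. In the GENCODE M21 annotation, Vps51 covers 12.1% of the exon bases of Tm7sf2 on its own strand, so its counts are uncertain. The deposited Tm7sf2 runs from 6062821 to 6077197 on chromosome 19, and that of GENCODE ends at 6068373. Overlap over the longer deposited span was not measured. The isomerase Ebp had 40.6, 36.1, 72.6 and 41.6 CPM in scramble, 30.4, 32.2, 38.8 and 42.8 in oAb and 33.8, 33.9, 41.7 and 36.5 in fAb, with groups that overlapped and log2 fold changes of -0.42 (SE 0.23, adjusted p = 0.148) and -0.38 (SE 0.22, adjusted p = 0.168) that did not pass. Dhcr7, the reductase that yields cholesterol, had 47.8, 49.4, 47.6 and 53.6 CPM in scramble, 44.8, 45.1, 47.4 and 50.5 in oAb and 45.6, 44.6, 49.9 and 47.7 in fAb. Its log2 fold changes of -0.10 (SE 0.09, adjusted p = 0.374) and -0.07 (SE 0.08, adjusted p = 0.505) had 95% intervals of -0.29 to 0.10 and -0.25 to 0.12.

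**Figure D2:**
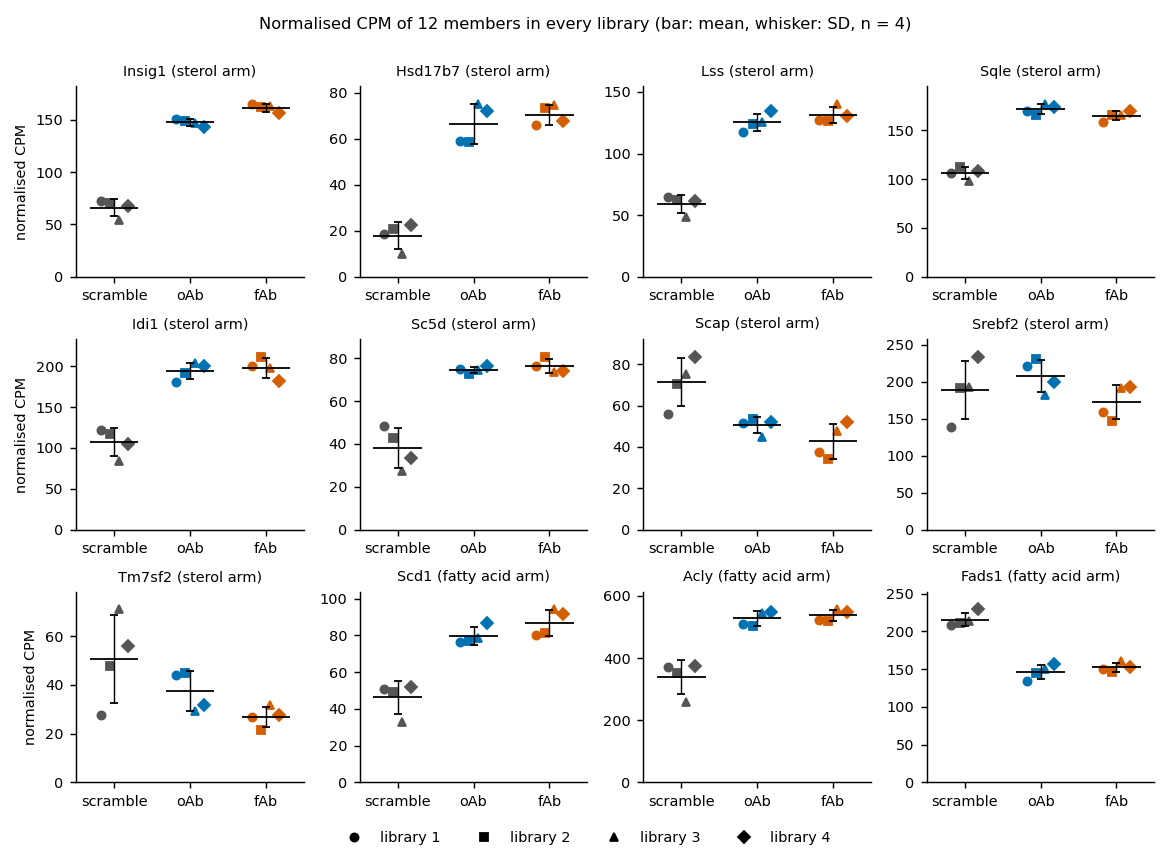
Normalised CPM (y axis, from 0) of 12 of the genes in each of the 4 libraries of scramble, oAb and fAb (x axis). The bar is the mean and the whisker the SD. Insig1 sits between 53.9 and 72.2 in scramble and at 143 or more in every exposed library, while Srebf2 overlaps in all groups and Scap and Fads1 are lower in the exposed libraries.

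Genes that sense and handle sterol diverged. Insig1 (mm10 chr5:28071363-28078662), which retains Scap and the SREBP proteins in the endoplasmic reticulum, had 72.2, 70.3, 53.9 and 67.2 CPM in scramble, 151, 149, 147 and 143 in oAb and 165, 162, 163 and 156 in fAb. Its log2 fold changes were 1.14 (SE 0.10, adjusted p = 1.42e-05) and 1.31 (SE 0.10, adjusted p = 4.58e-06), the smallest adjusted p of the 33 genes in both comparisons. Scap (mm10 chr9:110333288-110384950), the carrier that escorts the SREBP proteins, fell from 56.01, 70.6, 75.1 and 83.7 CPM in scramble to 51.6, 53.4, 44.8 and 52.2 in oAb and 37.6, 33.9, 47.7 and 51.9 in fAb. The lowest control, scramble 1, was above every exposed library by a small margin. The log2 fold changes were -0.51 (SE 0.13, adjusted p = 0.00847) and -0.73 (SE 0.17, adjusted p = 0.00511). Against scramble 1 alone, its lowest control, the values were -0.19 in oAb and -0.35 in fAb within the Gm10273 set, both smaller in size than the full values. On the opposite strand 5830462I19Rik covers 13.2% of its exon bases.

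Srebf2, which encodes the SREBP that drives sterol genes, did not pass. It was at 139, 191, 193 and 234 CPM in scramble, 221, 231, 182 and 200.2 in oAb and 159.8, 146, 191 and 193 in fAb. The groups overlapped, and the log2 fold changes were 0.12 (SE 0.15, adjusted p = 0.528) and -0.12 (SE 0.16, adjusted p = 0.543), with 95% intervals of -0.22 to 0.47 and -0.49 to 0.24. Scramble 1 was the lowest control, and within the Gm10273 set, where it is the only one, the oAb value was 0.47. Over the settings tried, the Srebf2 values ran from -0.05 to 0.47 in oAb and from -0.31 to 0.35 in fAb. Stard4, a carrier of free cholesterol, was at 118, 105, 59.9 and 107 CPM in scramble, 115, 107, 110.4 and 107 in oAb and 127, 127, 112 and 119 in fAb. Soat1, which esterifies cholesterol for storage, was at 343, 302, 258 and 326 in scramble, 322, 313, 339 and 343 in oAb and 336, 342, 349.9 and 340.3 in fAb. Neither passed in either comparison, with log2 fold changes of 0.16 (SE 0.18, adjusted p = 0.497) and 0.33 (SE 0.18, adjusted p = 0.147) for Stard4 and 0.08 (SE 0.10, adjusted p = 0.529) and 0.17 (SE 0.09, adjusted p = 0.155) for Soat1. Scramble 3 was the lowest control for both.

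In the fatty acid arm the higher calls were in acetyl-CoA supply, carboxylation and desaturation. In oAb 3 of 10 rose (Acly, Acaca and Scd1), 1 fell (Fads1) and 6 did not pass, with a median log2 fold change of 0.25. In fAb 4 rose (the same 3 and Scd2), 1 fell (Fads1) and 5 did not pass, with a median of 0.22. The shares of all genes called higher and lower are the 25.2% and 27% given for oAb and the 27.6% and 28.8% given for fAb. The 3 of 10 higher calls in oAb are thus near the background, and the 4 of 10 in fAb exceed it by little. Per-library medians of the arm ran from -0.33, in scramble 3, to 0.15 in scramble, from 0.19 to 0.31 in oAb and from 0.16 to 0.34 in fAb. Without scramble 3, 3503 of 11148 genes tested rose and 3671 fell in oAb, and 3819 of 11169 rose and 3779 fell in fAb. Of the 10 genes of the arm, 5 then rose and 2 fell in each comparison. With the library set as a term, 1 rose in fAb against scramble 1 alone.

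**Figure D3:**
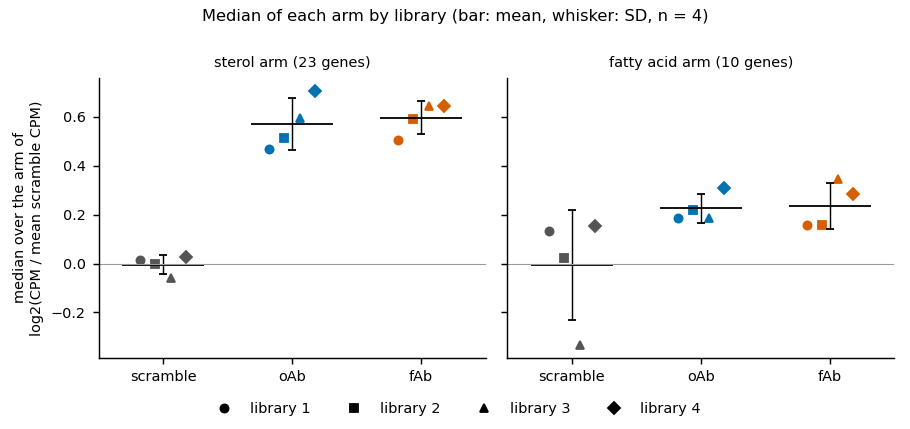
Median over the genes of each arm of log2(CPM / mean scramble CPM) (y axis) in each library by group (x axis), with the mean (bar) and SD (whisker, n = 4). The sterol arm lies between 0.47 and 0.71 in every exposed library and within 0.06 of 0 in scramble, and in the fatty acid arm scramble 3 lies apart at -0.33.

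Of the genes that make palmitate, Acly, which supplies cytosolic acetyl-CoA, had 372, 351, 258 and 375 CPM in scramble, 511, 504, 546 and 549 in oAb and 522, 521, 557 and 549 in fAb. All exposed libraries exceeded all controls, with log2 fold changes of 0.62 (SE 0.13, adjusted p = 0.00244) and 0.68 (SE 0.12, adjusted p = 0.00105). The oAb call was lost within the Timm23 set (0.62, adjusted p = 0.0513) and the fAb call with the library set as a term (0.56, adjusted p = 0.0569), at values close to the full ones. Acaca, the acetyl-CoA carboxylase that commits carbon to fatty acids, had 135, 120.0, 87.2 and 149 CPM in scramble, 155, 149.5, 191 and 199.9 in oAb and 162, 168, 187 and 186 in fAb. Its groups were separate, but by little between the highest control, scramble 4, and the lowest oAb library. Its log2 fold changes were 0.49 (SE 0.17, adjusted p = 0.0353) and 0.53 (SE 0.15, adjusted p = 0.0128), and the oAb call was lost in 7 of 17 other settings, without scramble 2 among them (0.48, adjusted p = 0.0794). The fAb call was lost under upper quartile scaling (0.35, adjusted p = 0.0613) and against scramble 1 alone with the library set as a term (0.42, adjusted p = 0.23). Acaca shares 30.4% of its 50-base words with other genes, Gm5182 among them, and its counts are uncertain. Fasn, the fatty acid synthase, had 490.5, 594, 493 and 734 CPM in scramble, 586, 574, 544 and 612 in oAb and 508, 406, 589.9 and 589.7 in fAb. The groups overlapped, and the log2 fold changes were -0.01 (SE 0.14, adjusted p = 0.948) and -0.13 (SE 0.16, adjusted p = 0.527).

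None of the 3 elongases passed the test in either comparison. Elovl1, which extends very long chains, was at 169, 168, 250.5 and 196 CPM in scramble, 223, 238, 273 and 279.5 in oAb and 225, 218, 259 and 267 in fAb. Scramble 3 alone reached into the exposed range. The log2 fold changes of 0.35 (SE 0.15, adjusted p = 0.0694) and 0.32 (SE 0.15, adjusted p = 0.0946) passed without scramble 3 (0.50, adjusted p = 0.00075 in oAb and 0.47, adjusted p = 0.000903 in fAb) and with the replicate block (0.37, adjusted p = 0.0364 in oAb and 0.33, adjusted p = 0.0335 in fAb). Elovl6, which extends palmitate, was at 77.6, 61.7, 38.6 and 60.4 CPM in scramble, 49.5, 50.1, 45.5 and 43.5 in oAb and 55.9, 53.4, 50.2 and 49.4 in fAb. Here scramble 3 was the lowest of all 12 libraries while the other controls were the highest, and the log2 fold changes were -0.35 (SE 0.18, adjusted p = 0.136) and -0.17 (SE 0.18, adjusted p = 0.425). Without scramble 3 they were -0.51 (adjusted p = 0.000996) and -0.33 (adjusted p = 0.0104), both past the test. Against scramble 1 alone, the Gm10273 set gave 0.72 and 0.56 for Elovl1 and -0.79 and -0.53 for Elovl6 in oAb and fAb. Elovl5, an elongase of polyunsaturated chains, had 102, 89.8, 76.01 and 99.3 CPM in scramble, 96.6, 87.8, 94.7 and 96.8 in oAb and 99.4, 103, 98.9 and 95.7 in fAb, with log2 fold changes of 0.02 (SE 0.11, adjusted p = 0.901) and 0.13 (SE 0.10, adjusted p = 0.307).

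Of the 4 desaturases, Scd1 rose and Fads1 fell in both comparisons. Scd1 (mm10 chr19:44394451-44407709), a stearoyl-CoA desaturase that makes monounsaturated chains, rose from 50.9, 49.5, 32.9 and 51.8 CPM in scramble to 76.6, 77.2, 78.4 and 86.6 in oAb and 80.4, 81.2, 94.2 and 91.6 in fAb. No exposed library overlapped the controls, and the log2 fold changes were 0.77 (SE 0.14, adjusted p = 0.00156) and 0.92 (SE 0.14, adjusted p = 0.000492). Scd2, its more abundant relative here, had 809, 740.2, 514 and 814 CPM in scramble, 934, 938, 849 and 914 in oAb and 978, 979, 1059 and 1002 in fAb. All exposed libraries were above the controls, among which scramble 3 was far the lowest. The log2 fold change of 0.50 (SE 0.14, adjusted p = 0.0133) in fAb passed and that of 0.32 (SE 0.15, adjusted p = 0.0912) in oAb did not, though it did without scramble 3 at a smaller value (0.19, adjusted p = 0.0336). With the library set as a term the fAb value was 0.34 (adjusted p = 0.281).

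Fads1 (mm10 chr19:10182888-10196870), a desaturase of polyunsaturated chains, fell in both comparisons. It was at 209, 211, 214 and 229 CPM in scramble, 135, 145, 149.8 and 156 in oAb and 151, 147, 161 and 152 in fAb. The controls, scramble 3 included, lay close together and above every exposed library. The log2 fold changes were -0.57 (SE 0.08, adjusted p = 0.000272) and -0.49 (SE 0.07, adjusted p = 0.0004), and over the settings tried they stayed between -0.74 and -0.43 in oAb and between -0.67 and -0.41 in fAb. Fads2, its neighbour on chromosome 19, had 68.2, 78.4, 75.7 and 90.3 CPM in scramble, 88.8, 87.3, 85.7 and 94.3 in oAb and 72.99, 75.5, 95.1 and 85.1 in fAb. Those groups overlapped, and the log2 fold changes of 0.17 (SE 0.10, adjusted p = 0.179) and 0.08 (SE 0.12, adjusted p = 0.57) did not pass. Within the Gm10273 set, against scramble 1 alone, the oAb value of Fads2 was 0.42.

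Side by side, 16 of the 33 genes rose in both comparisons with scramble, 2 fell in both (Scap and Fads1), 3 were called in fAb alone (Hmgcs1 and Scd2 higher, Tm7sf2 lower) and 12 were called in neither. The share of all genes called in both was not counted, so these counts have no background beside them. A call in 1 comparison alone does not show a difference between the preparations, which was tested directly. In fAb against oAb, edgeR called 0 of the 33 genes and 0 of all 10878 genes tested (0%). At an unadjusted p under 0.05 there were 6 of the 33, beside 12.8% of all genes, and DESeq2 called 4 genes higher and 12 lower over the whole table, none of the 33. Those 6 were Hmgcs1, Tm7sf2, Srebf2, Insig1, Stard4 and Scd2, each with an adjusted p of 0.375. Insig1 was higher in every fAb than in every oAb library, with a log2 difference of 0.13 (95% interval 0.03 to 0.23), as was Scd2, with 0.14 (95% interval 0.02 to 0.26). Of all genes, 3.12% were higher in fAb without overlap. Hmgcs1 differed by 0.14 (95% interval 0.03 to 0.26) and Stard4 by 0.14 (95% interval 0.02 to 0.26), and the lower values in fAb were those of Srebf2 at -0.28 (95% interval -0.51 to -0.04) and Tm7sf2 at -0.49 (95% interval -0.87 to -0.11). Here only oAb 1 and 2 are of the Timm23 set. They had 221 and 231 CPM for Srebf2 and 44.2 and 45.05 for Tm7sf2, against 182 and 200.2, and 29.4 and 31.7, in oAb 3 and 4. Over the settings tried, Srebf2 ran from -0.34 to -0.14 and Tm7sf2 from -0.59 to -0.18. For genes that rose in both, the difference was 0.08 (95% interval -0.10 to 0.26) for Hsd17b7, 0.06 (95% interval -0.06 to 0.18) for Lss and 0.00 (95% interval -0.11 to 0.12) for Cyp51, all smaller than their rise over scramble. Over all 33 genes the unadjusted 95% intervals reached from -0.87 to 0.29.

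**Figure D4:**
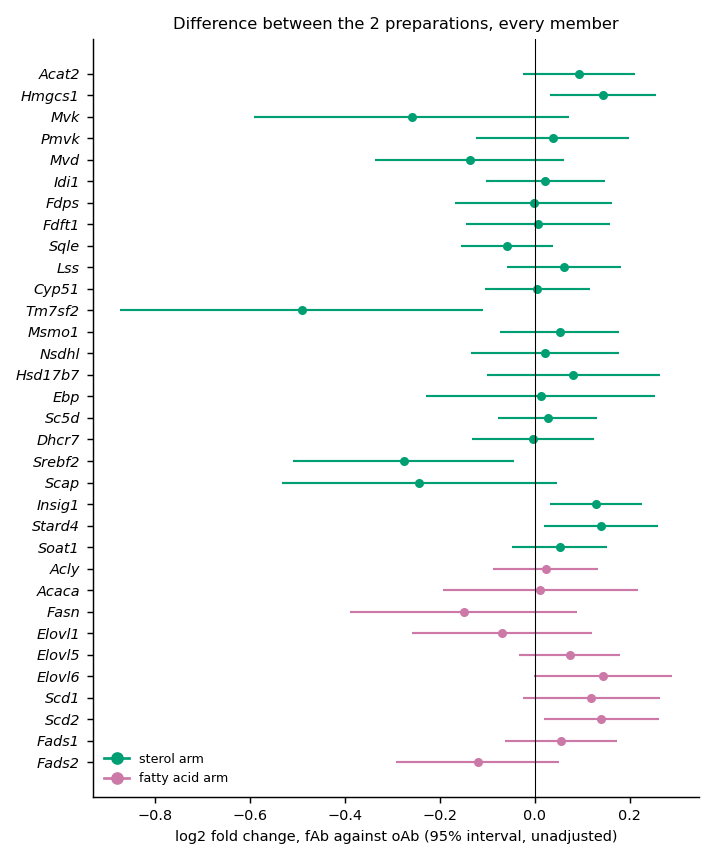
Log2 fold change of fAb against oAb (x axis) for each of the 33 genes (y axis), with unadjusted 95% intervals as bars, sterol arm in green and fatty acid arm in pink. Most points lie near 0, and Tm7sf2 at -0.49 has the widest interval.

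Other genes of the pathways were taken from lists drawn up by function, also with earlier results of these data known. Of 24 further sterol genes 23 were tested, and 8 rose and 4 fell in oAb and 10 rose and 4 fell in fAb, with medians of 0.27 and 0.28, beside 25.2% higher and 27% lower of all genes in oAb and 27.6% and 28.8% in fAb. Ggps1, which branches off to protein prenylation, rose from 22.3 ± 5.09 CPM (mean ± SD, n = 4) in scramble to 37.2 ± 3.76 in oAb and 41.8 ± 4.27 in fAb, with log2 fold changes of 0.72 (SE 0.17, adjusted p = 0.00527) and 0.92 (SE 0.16, adjusted p = 0.00115). With the library set as a term its fAb call was lost (0.61, adjusted p = 0.0715). Cyp27a1, a mitochondrial sterol hydroxylase, fell from 14.03 ± 1.43 CPM to 1.54 ± 0.284 and 2.00 ± 0.480, with log2 fold changes of -3.20 (SE 0.17, adjusted p = 3.57e-07) and -2.80 (SE 0.18, adjusted p = 2.03e-06). Ch25h, which makes an oxysterol that blocks SREBP processing, was not tested because its mean was at or near 0 CPM in every group.

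Of 31 further fatty acid and lipid genes 23 were tested, and 8 rose and 6 fell in oAb and 8 rose and 7 fell in fAb, with medians of -0.02 and -0.03, near the medians of all genes. The same shares of all genes (25.2% and 27% in oAb, 27.6% and 28.8% in fAb) are the background, and the counts of lower calls are close to it. Srebf1, whose product drives fatty acid genes, was at 111 ± 19.6 CPM in scramble, 91.4 ± 26.98 in oAb and 74.5 ± 13.95 in fAb. It fell in fAb, by a log2 fold change of -0.56 (SE 0.17, adjusted p = 0.0202), and did not pass in oAb, at -0.30 (SE 0.22, adjusted p = 0.288). The fAb call was lost without scramble 4 (-0.49, adjusted p = 0.0591), without fAb 1 (-0.54, adjusted p = 0.056) and with the library set as a term (-0.13, adjusted p = 0.693). Acsl1, which activates long-chain fatty acids, rose from 45.1 ± 7.32 CPM to 338 ± 35.2 and 337 ± 7.31, with log2 fold changes of 2.89 (SE 0.14, adjusted p = 2.23e-07) and 2.91 (SE 0.12, adjusted p = 8.33e-08). Lpin1, a phosphatidate phosphatase, fell from 16.02 ± 2.32 CPM to 2.81 ± 0.395 and 2.89 ± 0.327, and Hacd4, a dehydratase of the elongation cycle, from 4.89 ± 1.12 CPM to 0.756 ± 0.363 and 0.835 ± 0.292. Their log2 fold changes were -2.53 (SE 0.16, adjusted p = 1.29e-06) and -2.45 (SE 0.15, adjusted p = 8.93e-07) for Lpin1 and -2.69 (SE 0.35, adjusted p = 0.000163) and -2.54 (SE 0.27, adjusted p = 5.08e-05) for Hacd4.

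All 4 genes of the LXR list were tested, and 2 rose in oAb with none lower, while 2 rose and 1 fell in fAb, too few genes to read against the 25.2% and 27% of all genes called higher and lower in oAb and the 27.6% and 28.8% in fAb. Abca1, the cholesterol exporter, rose from 92.4 ± 44.1 CPM to 307 ± 37.4 and 333 ± 14.6, with log2 fold changes of 1.72 (SE 0.35, adjusted p = 0.00284) and 1.87 (SE 0.35, adjusted p = 0.00156). Nr1h3, which encodes an LXR receptor, rose from 15.9 ± 3.96 CPM to 32.4 ± 3.38 and 27.96 ± 2.23, with log2 fold changes of 1.02 (SE 0.18, adjusted p = 0.0011) and 0.83 (SE 0.18, adjusted p = 0.00317). The Abca1 calls were lost within the Timm23 set in oAb (1.71, adjusted p = 0.051) and with the library set as a term in fAb (1.54, adjusted p = 0.0785).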

How the data were processed

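RNA was taken by spin column from IMG cells, and 2 ug of it went into each of 12 stranded mRNA libraries, per the labels' protocols. Reads were placed on mm10, according to the submitters' processing notes, with the aligner, counter and strand setting not given in the sources used here. Each of the deposited tables lists 41325 genes for the controls beside one of the exposures, and holds the authors' whole-number counts and their TPM, an abundance corrected for length and depth, per the file headers. Control counts were identical in both tables. The deposited TPM served only to compare levels between genes, and other deposited columns were not used.

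The test was edgeR 4.0.16 (R 4.3.3) on counts of the 8 libraries of each comparison, with filterByExpr (minimum count 10), TMM scaling, a robust quasi-likelihood F test, two-sided, and Benjamini-Hochberg adjustment over all genes tested at a threshold of 0.05. Normalised CPM used TMM over all 12 libraries. The procedure was also run on simulated counts, drawn independently around means pooled over the groups of a comparison. These held no library like scramble 3 and no library sets, so they do not bear on those features. DESeq2 1.42.0 was an alternative. The genes and lists were chosen with earlier results of these data known. Library values were to be given for the strongest calls of each arm, for Srebf2, Scap and Insig1 and for calls against the direction of their arm, and are given for all 33 genes. Of each further list, the 3 largest changes called in both comparisons at a mean of at least 2 CPM are named, with Srebf1 and Ch25h, except that some genes this rule selects are not reported here. Overlaps and shared 50-base words come from GENCODE M21, and promoters from RefSeq. Of the 33 genes, 28 have the same start and end in GENCODE M21 as deposited. Those of Tm7sf2, Scd1, Scd2, Fads1 and Fads2 differ, so their overlap shares may not hold for the genes as counted.

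Groups share replicate numbers in the labels' titles. Deviations of same-numbered libraries of fAb and scramble correlated at 0.13 to 0.26, and those of differently numbered libraries at -0.47 to 0.55. The numbers therefore do not show a pairing, and the main fits used no replicate block. In that comparison 1 of 4 libraries correlated best with its own number. Leave-one-out, scaling, filter, replicate block and pooled-fit alternatives were planned, and the library-set alternatives were added after seeing the data.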

Additional observations from a re-analysis of the deposited data

Results flagged for a closer look

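In 4 of 99 groups of 4 libraries, 1 library lay far from the other 3 by the Dixon test on normalised CPM, where chance gives about 1 in 20, and all 4 cases were scramble library 3. It was high for Pmvk, at 33.6 CPM against 21.2 to 21.7 in the other controls. For Fdps it stood at 251 CPM against 172 to 183, and for Ebp at 72.6 CPM against 36.1 to 41.6. It was low for Scd1, at 32.9 CPM against 49.5 to 51.8. Fdps and Scd1 kept their calls in both comparisons with scramble without this library.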

How the results depend on the processing

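The 33 genes have 138 or more counts in every library, and calls rest on 4 libraries a group, with scramble 3 apart from the other controls. Upper quartile scaling moved the median of all genes from -0.07 to -0.24 in oAb and from -0.04 to -0.23 in fAb. It changed the calls over all genes from 2777 higher and 2984 lower to 2127 and 4015 in oAb, and from 3051 and 3184 to 2273 and 4361 in fAb. Under it 2 sterol and 2 fatty acid genes were lower in oAb, 4 sterol genes were lower in fAb and 2 fatty acid genes were higher in fAb. In oAb, 5 fatty acid genes were higher with the DESeq2 test and with all 12 libraries in 1 fit. With the library set as a term, which leaves scramble 1 alone against fAb, fAb gave 0 sterol genes lower, 1 fatty acid gene higher and 2020 higher and 1824 lower over all genes. Within the Timm23 set, oAb gave 1 fatty acid gene higher and 1816 genes lower. Within the Gm10273 set, where scramble 1 is the only control, it gave 0 sterol genes lower, 6 fatty acid genes higher and 2 lower, and fAb gave 0 sterol genes lower and 2 fatty acid genes lower. There Fasn in oAb was 0.25 (adjusted p = 0.0136) against -0.01 in the full comparison. It is the only reversal counted and rests on 1 control, the lowest for Fasn, and 2 oAb libraries, so it settles no call; a change of sign was counted only where 1 of the values passed the test. In fAb against oAb, DESeq2 called 4 genes higher and 12 lower. The causes were not tested. Leaving out 1 library at a time gave 12 to 15 sterol genes higher in oAb and in fAb, 1 to 2 lower in oAb and 2 in fAb. It gave 2 to 5 fatty acid genes higher in oAb and 4 to 5 in fAb, and 1 to 2 lower in each. Over all genes it gave 2456 to 3503 higher and 2506 to 3671 lower in oAb, and 2663 to 3819 and 2806 to 3779 in fAb. The replicate block gave 13 sterol genes higher in oAb and 14 in fAb, and 5 fatty acid genes higher in fAb. Same-numbered libraries of oAb and scramble correlated at -0.29 to 0.08, and the numbers are not shown to be pairs in either comparison. Of the 33 genes, 11 sterol and 2 fatty acid genes kept their call in oAb in every setting, and 12 and 2 in fAb (Scd1 and Fads1 in the fatty acid arm of both). The share of all genes that kept a call in every setting was not counted.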
